A study of Mus musculus with 58 samples.

Results

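Haematopoietic stem cells (HSCs) of young mice that had been refed after short-term caloric restriction (YCRRF) were compared by RNA-seq with HSCs of young mice still on restriction (YCR). The comparison used 8 libraries, 4 of YCRRF and 4 of YCR, out of 34 RNA libraries and 58 libraries in all. The mice were male C57BL/6 WT animals, 3 to 4 months old when put on the diet. YCR mice received 20% CR for 1 week and 40% CR for the next 3 weeks, and YCRRF mice then ate ad libitum for 4 weeks. Refed mice were therefore also further in time from the start of the diet, and by this schedule about 4 weeks older when cells were taken. Young mice fed ad libitum throughout (YAL, 4 libraries) give the reference level. The study's scheme gives them 4 weeks of this feeding, so YCRRF mice were also about 4 weeks older than YAL mice. Old mice of 24 to 26 months were on lifelong 40% CR from an age of 3 to 4 months (OCR, 4 libraries). Others were refed for 4 weeks after it (OCRRF, 2 libraries). Old and young mice thus differed in both age and length of restriction, which cannot be told apart. In every group HSCs were sorted from bone marrow as propidium iodide-negative, lineage-negative, Sca-1+ c-Kit+ CD34- Flk2- CD150+ cells. Each young group had as many mice as libraries by its description, while the labels tie no library to a mouse, so p-values measure the spread between libraries.

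HSCs replenish all blood lineages and are mostly quiescent, entering the cell cycle rarely and on demand. Their division and survival depend on cytokines, which signal through JAK2 and STAT5 and switch on feedback inhibitors of the same pathway, and interferons act on them through a related pathway. Restriction of food lowers insulin and growth factor signalling and shifts nutrient sensing through FOXO factors, and refeeding reverses the supply of nutrients.

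YCR libraries held 17194907 to 31941766 counts on genes and YCRRF libraries 11102898 to 36579392. YCRRF replicate 4 was the shallowest, so genes of low level have the widest counting error there. YCRRF replicate 3 stood apart from the rest. In it, 12.0% of counts fell on 7 genes of ribosomal RNA, of loci that collect ribosomal RNA reads and of the 7SK RNA (a set chosen after the values were seen), against 1.54% to 2.76% in the other YCRRF libraries and 2.23% to 3.40% in YCR. On the first principal component, taken over genes that averaged 5 CPM or more (CPM, counts scaled to the library total), it lay at 56.0 and the other 7 libraries between -18.9 and 5.12. Results that rest on this library are therefore given with and without it. The HSC identity of the cells was described on 12 defining genes, including Kit, Ly6a (Sca-1), Slamf1 (CD150), Procr and Mecom. Kit, Ly6a and Slamf1 encode markers used in the sort, so their presence is no independent check. All 12 were measured, and their levels summed to 5274 to 5856 CPM in YCR and 4848 to 6395 CPM in YCRRF. The 4848 CPM was in YCRRF replicate 3, and the other refed libraries held 5958 to 6395 CPM, above all YCR libraries. At an unadjusted p below 0.05, 4 of the 12 were higher in YCRRF with all libraries and 9 without replicate 3. None was lower in either fit. The 7 genes of markers excluded by the sort, of which 4 could be tested, summed to 191 to 245 CPM in YCR and 152 to 204 CPM in YCRRF.

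Markers of other cell types were present, and several differed between the diets. Summed over 369 immunoglobulin genes, the products of B and plasma cells, the level was 50.5, 1918, 3039 and 1047 CPM in YCR replicates 1 to 4 and 18.9, 37.5, 29.2 and 5.15 CPM in YCRRF, against 43.3 to 122 CPM in YAL. The high values thus came from 3 of the 4 YCR libraries. The 13 granulocyte markers summed to 485, 144, 119 and 290 CPM in YCR and to 887, 1809, 1237 and 467 CPM in YCRRF, with 130 to 837 CPM in YAL. No granulocyte marker was at 0 in all 8 libraries. The 14 erythroid markers summed to 1635 to 2041 CPM in YCR and 1365 to 1613 CPM in YCRRF, and the 13 endothelial and stromal markers, which include Vwf and Kdr, to 279 to 380.1 and 380.2 to 648 CPM, in both cases without overlap. Of the tested members, 4 of 13 erythroid markers were lower, and 2 of 11 endothelial and stromal markers were higher and 1 lower, at an unadjusted p below 0.05. Over the 8 fits without 1 library, the erythroid count ran from 2 to 5. The endothelial and stromal counts ran from 1 to 3 higher and from 0 to 2 lower. With all libraries and the same threshold, 7 of 12 granulocyte markers were higher, against 3.93% of all genes. Lower were 5 of 9 B and plasma cell markers and 3 of 10 monocyte and macrophage markers (0 without YCR replicate 1), against 3.34%. All 12 granulocyte markers had a positive log2 fold change (median 3.05) and all 9 B and plasma cell markers a negative one (median -2.84). T and NK cell markers summed to 36.8 to 64.4 CPM in YCR and 20.3 to 48.0 CPM in YCRRF, and monocyte and macrophage markers to 74.1 to 85.1 and 50.0 to 82.4 CPM. Of 8 markers of mast cells and basophils, 1 was at 0 in all 8 libraries and 2 could be tested. Their part in the results was not tested. Olfactory and vomeronasal receptor genes, which blood cells are not known to use, summed to 66.5 to 474 CPM in YCR and 138 to 473 CPM in YCRRF. In bulk RNA, fewer cells of a type and less RNA per cell cannot be told apart.

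**Figure D1:**
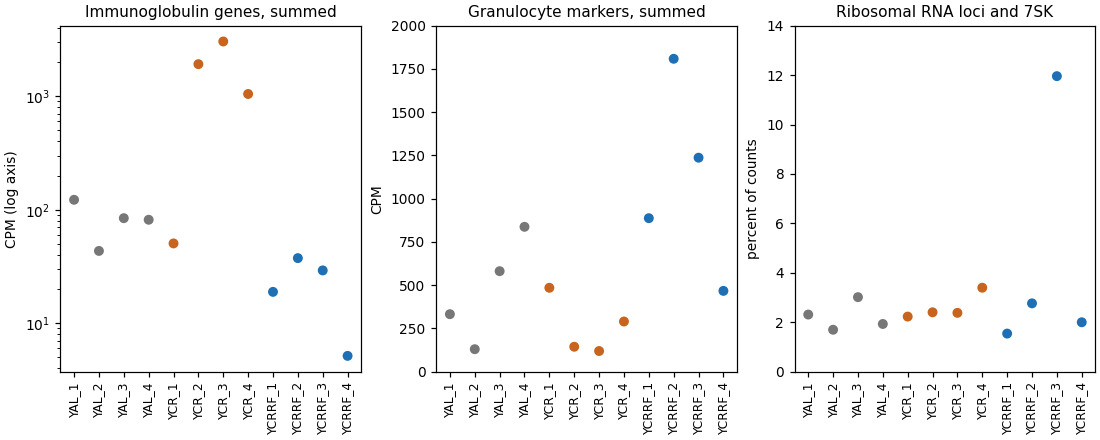
Summed CPM of 369 immunoglobulin genes (left, log axis), summed CPM of 13 granulocyte markers (middle) and the percent of counts on 7 ribosomal RNA and 7SK genes (right) in each of 12 young libraries, coloured by group (grey YAL, orange YCR, blue YCRRF). Immunoglobulin RNA was high in YCR replicates 2 to 4, and YCRRF replicate 3 alone held 12.0% ribosomal RNA.

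The question of the comparison is which genes of the restricted HSC move when food returns. Of 19535 genes tested with edgeR's quasi-likelihood test, 2 were differentially expressed (DEGs, with a fold change over 1.2 and an adjusted p under 0.05), or 0.0102%, and both rose on refeeding. They were Slfn2, a Schlafen family gene that holds immune cells and their precursors in quiescence, and Pqlc3, which encodes a membrane protein with PQ-loop repeats. At an unadjusted p below 0.05, 768 genes were higher in YCRRF (3.93%) and 652 lower (3.34%). In 538 genes (2.75%) every YCRRF library lay above every YCR library, and in 561 (2.87%) every one lay below. DESeq2, which the study used, called 185 of 21682 genes higher (0.853%) and 172 lower (0.793%). The median log2 fold change over all genes was 0.02, a value that TMM scaling holds near 0. Below, fold changes are YCRRF against YCR from edgeR with their SE, and a gene is said to rise or fall only if it was a DEG in that fit. The shares of all genes given here are the reference for counts of list members below.

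Slfn2 (ENSMUSG00000072620, chr11:83065112-83070678 on mm10, plus strand) measured 26.9, 37.4, 20.1 and 29.5 CPM in the 4 YCR libraries and 90, 103, 94.0 and 103 CPM in the 4 YCRRF libraries. The groups lay far apart, with the lowest refed library well above the highest restricted one. The log2 fold change was 1.77 (SE 0.19, edgeR adjusted p = 0.0331). YAL libraries held 97.0 to 134 CPM, which overlaps the refed range. Of the other Schlafen genes, 6 could be tested, and none was called. Slfn5 had a log2 fold change of 1.08 (SE 0.55) and Slfn8 of 0.23 (SE 0.27), each with overlapping libraries.

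Pqlc3 (ENSMUSG00000045679, chr12:16988648-17000408, minus strand) measured 48.2, 36.7, 41.4 and 46.6 CPM in YCR and 99.8, 90.6, 99.4 and 93.7 CPM in YCRRF. Its log2 fold change was 1.14 (SE 0.14, edgeR adjusted p = 0.0478). YAL libraries lay at 55.1 to 83.3 CPM, between the restricted and the refed ranges without overlap with either. Both calls depend on single libraries and on the model. Neither gene was a DEG with the replicate number as a block or with receptor RNA as a covariate, and Pqlc3 was also lost with DESeq2's size factors and with TMM from genes averaging 5 CPM or more. Slfn2 stayed a DEG in 3 and Pqlc3 in 2 of the 8 fits that left out 1 library, while the fold changes ranged only from 1.64 to 1.93 and from 1.07 to 1.18.

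**Figure D2:**
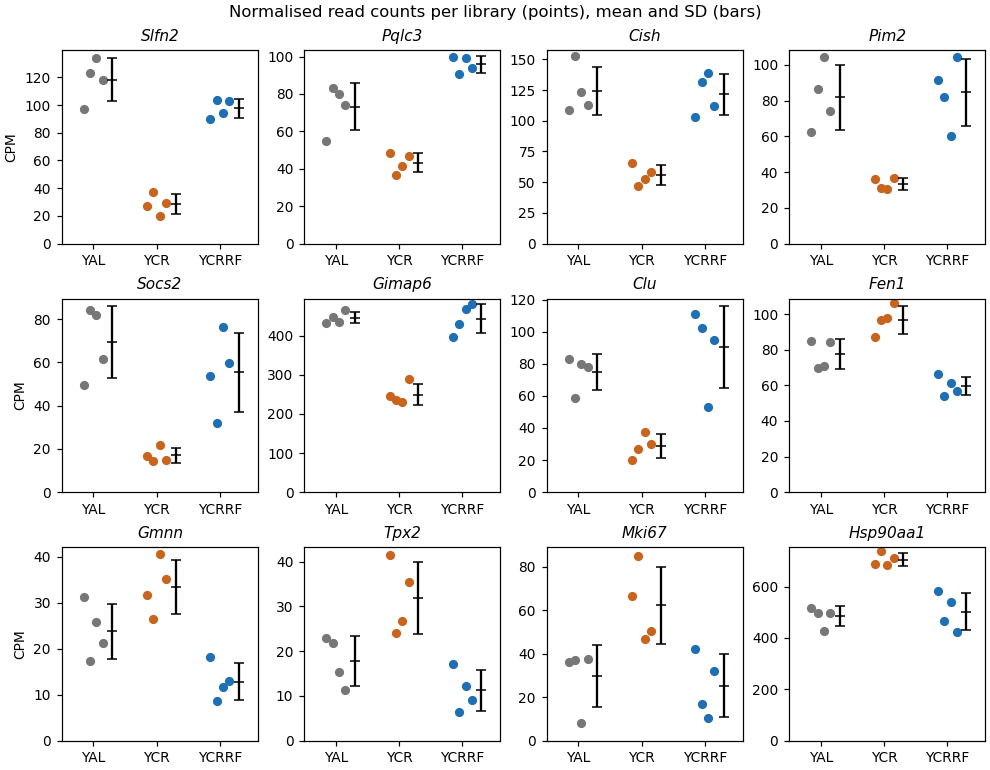
CPM of 12 genes in each YAL (grey), YCR (orange) and YCRRF (blue) library, with the group mean and SD beside the points (n = 4 each). For Slfn2, Pqlc3, Cish, Pim2, Socs2, Gimap6 and Clu all refed libraries lie above all restricted ones, and for Fen1, Gmnn, Tpx2, Mki67 and Hsp90aa1 all lie below.

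Among the next genes by p, with no overlap between the groups, were feedback genes of cytokine signalling. Cish, a STAT5 target that inhibits cytokine receptors, measured 65.5, 46.5, 52.9 and 58.0 CPM in YCR and 103, 131, 139 and 112 CPM in YCRRF (log2 fold change 1.11, SE 0.15, edgeR adjusted p = 0.0713). Pim2, a survival kinase induced by cytokines, went from 30.4 to 36.5 CPM in YCR to 60.3 to 105 CPM in YCRRF (1.33, SE 0.19, edgeR adjusted p = 0.0713). Socs2, another feedback inhibitor of the JAK-STAT pathway, measured 16.6, 14.5, 21.8 and 15.0 CPM against 53.7, 32.0, 76.2 and 59.7 CPM (1.70, SE 0.27, edgeR adjusted p = 0.103). These 3 missed the threshold in edgeR and were called by DESeq2. Of 17 STAT5 feedback genes 16 were tested, 10 with a positive and 6 with a negative log2 fold change. At an unadjusted p below 0.05, 4 (25.0%) were higher in YCRRF, against 3.93% of all genes, and none lower. These were the 3 genes above and the kinase gene Pim1 (0.87, SE 0.20). Library scores (median over the list of log2 CPM minus the YCR mean) overlapped, at -0.19 to 0.17 in YCR and -0.02 to 0.50 in YCRRF. The median of the list was 0.23, and the kinase gene Jak2 had a log2 fold change of 0.03.

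Of the 12 genes higher with the lowest p, Gimap6 and Clu are described with their lists, and others were Efna1 (an ephrin ligand, 17.5 to 22.3 CPM in YCR and 46.8 to 53.1 CPM in YCRRF), Myof (a membrane repair protein, 45.8 to 68.1 and 103 to 122 CPM), Arhgef3 (a guanine nucleotide exchange factor, 48.4 to 68.6 and 96.4 to 136 CPM), Rhoj (a small GTPase, 24.8 to 31.4 and 50.4 to 101 CPM) and Serpina3g (a protease inhibitor induced by interferon, 349 to 525 and 671 to 963 CPM). Their log2 fold changes were 1.24, 0.96, 1.00, 1.33 and 0.96, and the edgeR adjusted p of Efna1 was 0.0713. Serpina3g measured 969 to 1436 CPM in YAL, above both diet groups, while Rhoj had a mean of 46.1 ± 5.0 CPM in YAL and 70.0 ± 22 CPM in YCRRF (SD, n = 4).

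Genes of DNA replication and division formed the clearest group on the lower side. Of 43 S phase genes, all tested, 43 had a negative log2 fold change and 31 (72.1%) an unadjusted p below 0.05, against 3.34% of all genes. None was a DEG in edgeR, and DESeq2 called 16 lower, against 0.793% of all genes. In 23 every refed library lay below every restricted one, against 2.87% of all genes. The median of the list was -0.66. Fen1, the flap nuclease of lagging strand synthesis, measured 87.2, 96.6, 97.8 and 106 CPM in YCR and 66.3, 54.2, 61.3 and 56.9 CPM in YCRRF (-0.71, SE 0.13, edgeR adjusted p = 0.179). Gmnn, the licensing inhibitor geminin, measured 31.6, 26.4, 40.5 and 35.2 CPM against 18.1, 8.53, 11.8 and 12.9 CPM (-1.39, SE 0.27, edgeR adjusted p = 0.185). Clspn, the checkpoint adaptor claspin, was low in both groups, at 7.29 to 14.5 and 1.55 to 3.97 CPM, with the groups apart (-2.06, SE 0.43).

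Of 54 genes of G2 and M phase, 51 had a negative log2 fold change, 25 (46.3%) were lower and 1, Gas2l3, was higher at an unadjusted p below 0.05, with a median of -0.56. Aurkb, the kinase of chromosome segregation, measured 14.2 to 28.9 CPM in YCR and 2.19 to 7.62 CPM in YCRRF (-1.95, SE 0.41). Tpx2, a spindle factor, measured 24.0 to 41.5 and 6.50 to 17.2 CPM (-1.51, SE 0.32). Mki67, the proliferation marker, measured 66.5, 85.1, 46.7 and 50.5 CPM in YCR and 42.2, 16.7, 10.7 and 31.9 CPM in YCRRF (-1.31, SE 0.38, edgeR adjusted p = 0.385), and YAL libraries ranged from 8.26 to 37.4 CPM. Not all cycle genes separated the groups. Ccna2 and Cdk1 overlapped between them, with log2 fold changes of -1.09 and -0.72, and the checkpoint kinase gene Chek1 had -0.52 (SE 0.32).

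Of 20 tested regulators of the G1 phase, 2 (10.0%) were higher and 4 (20.0%) lower at an unadjusted p below 0.05, with a median of -0.20. Over all genes 3.93% were higher and 3.34% lower. The 4 became 2 without YCR replicate 1 or 3, and 3 to 6 without each of the others. E2f1, the activator of S phase genes, measured 40.2 to 49.4 CPM in YCR and 17.1 to 30.9 CPM in YCRRF (-1.10, SE 0.22), and Cdk6, the kinase that D cyclins activate, had -0.58 (SE 0.15). Cdkn1c, the CDK inhibitor p57 that marks quiescent HSCs, measured 66.2 to 93.8 CPM in YCR and 104 to 126 CPM in YCRRF (0.52, SE 0.15). Inhibitor genes Cdkn1a, Cdkn1b, Cdkn2c and Cdkn2d had -0.32, -0.12, -1.22 and -0.09, none at an unadjusted p below 0.05, and the repressor genes Rbl1 and E2f4 had -0.76 and -0.32. D cyclin genes Ccnd1, Ccnd2 and Ccnd3 had log2 fold changes of -0.38, -0.17 and 0.10. Without YCRRF replicate 3, 32 S phase and 26 G2/M genes were lower at an unadjusted p below 0.05, and over all 8 fits without 1 library these counts ran from 23 to 34 and from 19 to 26.

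**Figure D3:**
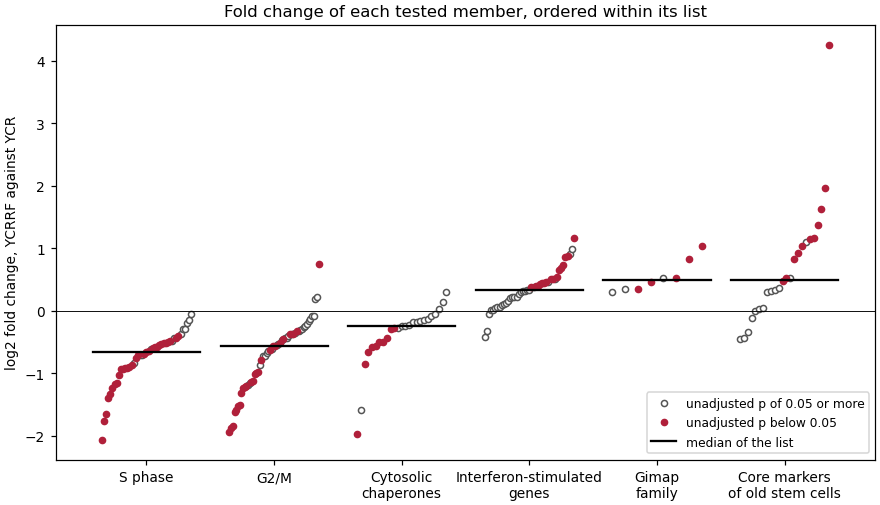
Log2 fold change of YCRRF against YCR for each tested member of 6 lists, ordered within the list, with filled points for an unadjusted p below 0.05 and a line at the median. All 43 S phase genes and 51 of 54 G2/M genes lie below 0, and 40 of 43 interferon-stimulated genes and all 8 Gimap genes lie above it.

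Chaperones of the cytosol lay mostly below 0. Among 25 genes 22 had a negative log2 fold change, and the median was -0.25. At an unadjusted p below 0.05, 10 (40.0%) were lower, against 3.34% of all genes. Hsp90aa1, the stress-inducible HSP90, measured 687, 738, 685 and 713 CPM in YCR and 582, 468, 539 and 422 CPM in YCRRF (-0.50, SE 0.11, edgeR adjusted p = 0.214). Hsph1, an HSP110 chaperone that works with HSP70, had -0.86 (SE 0.19) and Fkbp5, a co-chaperone of the glucocorticoid receptor, -0.66 (SE 0.12), at 118 to 149 CPM in YCR and 78.7 to 93.1 CPM in YCRRF. Hspa8 was abundant, at 1694 to 2397 and 1030 to 1781 CPM, and its libraries overlapped. Chaperones of the endoplasmic reticulum had a median of -0.12 with 3 of 25 lower at an unadjusted p below 0.05 (1 without YCR replicate 2 or YCRRF replicate 4, 5 without YCRRF replicate 3 and 6 without YCRRF replicate 1), and Hspa5 (BiP) had -0.20 (SE 0.13).

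Other genes on the lower side did not share a list. They were Fgf3, a fibroblast growth factor gene at 12.5 to 28.7 CPM in YCR and 0.743 to 4.25 CPM in YCRRF (-2.98, SE 0.51, edgeR adjusted p = 0.131), Mc5r, a melanocortin receptor gene at 26.2 to 47.6 and 6.25 to 14.6 CPM, and Hmox1, haem oxygenase 1, at 43.8 to 54.5 and 10.3 to 25.3 CPM. Mlec, a lectin of the endoplasmic reticulum, Rnf144a, a ubiquitin ligase gene, and Bbs9, a gene of the ciliary BBSome, had log2 fold changes of -0.76, -0.89 and -1.15. Itga2b, the integrin CD41 of platelets and of platelet-primed HSCs, measured 144 to 244 CPM in YCR and 103 to 130 CPM in YCRRF (-0.77, SE 0.16). Igkc had 7.34, 602, 883 and 305 CPM in YCR and 0, 6.68, 0.0675 and 0 CPM in YCRRF, as one gene of the immunoglobulin RNA described above. Iglc3 had reads in all YCR libraries (864 counts) and none in YCRRF, at least 331-fold lower against a floor of 3 counts over the group, a bound that covers counting error only.

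Genes induced by interferon lay mostly above 0. Of 43 tested, 40 had a positive log2 fold change. At an unadjusted p below 0.05, 16 (37.2%) were higher, against 3.93% of all genes, and none was lower. DESeq2 called 7 higher, against 0.853% of all genes. The list median was 0.33. Ifitm1, an antiviral membrane protein, measured 418, 429, 448 and 513 CPM in YCR and 812, 869, 1576 and 849 CPM in YCRRF (1.17, SE 0.20, edgeR adjusted p = 0.131). Its highest value was in YCRRF replicate 3, without which the log2 fold change was 0.89. Irgm2, a GTPase of the immunity-related family, measured 102, 102, 83.3 and 105 CPM against 155, 150, 176 and 171 CPM (0.73, SE 0.12), and Iigp1 of the same family had 0.69 (SE 0.13). Members without a clear difference included Ifit2, Samhd1 and Ifih1, at 0.13, 0.11 and 0.02. Without YCRRF replicate 3, 15 of the 43 were higher at an unadjusted p below 0.05.

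The Gimap family, GTPases of immune cells encoded side by side on chromosome 6, had all 8 members positive and a median of 0.49. At an unadjusted p below 0.05, 5 (62.5%) were higher, against 3.93% of all genes. Gimap6 measured 245, 235, 230 and 288 CPM in YCR and 396, 431, 468 and 481 CPM in YCRRF (0.82, SE 0.12, edgeR adjusted p = 0.0713). The YAL range of 434 to 466 CPM lay inside the refed one. Among 9 genes of MHC class II presentation, 4 (44.4%) were higher at an unadjusted p below 0.05. Cd74, the invariant chain, measured 326 to 394 CPM in YCR and 491 to 585 CPM in YCRRF (0.58, SE 0.11). The 14 class I genes had a median of 0.11. Only Tapbp was higher at an unadjusted p below 0.05 (7.14%, against 3.93% of all genes). This count of 1 ran from 0 to 3 over the fits without 1 library.

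Promoters of the leading genes are shown as the 250 bases before the RefSeq start on build GRCm38.p6, for genes whose window held no annotated exon. Each was searched on both strands for a STAT motif (TTCNNNGAA) and an interferon response motif, and matches are in capitals. Slfn2 (chr11:83064862-83065111, plus strand), shown as the DEG of lowest p, held neither. Gimap6 (chr6:48708245-48708494, minus strand) and Serpina3g (chr12:104235897-104236146, plus strand) held 1 STAT match each, and Irgm2 (chr11:58214727-58214976, plus strand) held 1 match of each kind. The windows of Pqlc3, Cish and Pim2, which are not shown, held 0 matches of either kind, and Socs2 had no entry.
Slfn2: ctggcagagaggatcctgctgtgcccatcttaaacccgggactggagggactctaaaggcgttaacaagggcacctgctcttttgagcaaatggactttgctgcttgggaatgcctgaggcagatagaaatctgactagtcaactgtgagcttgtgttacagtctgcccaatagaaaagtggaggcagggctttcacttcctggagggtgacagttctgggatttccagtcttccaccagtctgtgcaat
Gimap6: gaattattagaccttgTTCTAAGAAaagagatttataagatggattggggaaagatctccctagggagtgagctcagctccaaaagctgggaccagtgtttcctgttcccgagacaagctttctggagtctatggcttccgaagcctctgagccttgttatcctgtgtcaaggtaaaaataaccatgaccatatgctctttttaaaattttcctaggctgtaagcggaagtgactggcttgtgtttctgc
Serpina3g: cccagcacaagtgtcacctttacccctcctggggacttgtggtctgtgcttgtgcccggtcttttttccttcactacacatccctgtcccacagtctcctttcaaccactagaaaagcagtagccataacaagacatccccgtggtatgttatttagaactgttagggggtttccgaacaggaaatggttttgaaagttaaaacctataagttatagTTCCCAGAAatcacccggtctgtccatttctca
Irgm2: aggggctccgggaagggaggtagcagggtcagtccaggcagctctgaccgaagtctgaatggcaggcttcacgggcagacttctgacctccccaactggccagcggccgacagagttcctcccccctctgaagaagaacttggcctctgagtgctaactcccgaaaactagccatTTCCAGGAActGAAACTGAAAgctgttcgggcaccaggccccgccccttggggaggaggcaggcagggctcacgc

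Over all 32851 promoters in the table, 7.02% held the STAT motif and 2.98% the interferon motif. Of the interferon-stimulated genes 32 of 43 had entries, with 37 promoters, of which 27.0% held the STAT motif and 43.2% the interferon motif. For STAT5 feedback genes 14 of 17 had entries, and 3 of 21 promoters (14.3%) held the STAT motif. In both cell cycle lists other motifs were frequent. E2F motifs (TTTGGCGC or TTTCCCGC) were in 23.5% of 34 S phase promoters against 1.30% of all, the CHR motif (TTTGAA) in 40.4% of 52 G2/M promoters against 16.0%, and CCAAT in 67.6% and 75.0% against 33.8%. The ER stress motif (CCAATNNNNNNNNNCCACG), which contains a CCAAT box, was in 36.4% of 22 promoters of endoplasmic reticulum chaperones against 0.113%. The glucocorticoid motif was in 1 of 24 promoters of glucocorticoid response genes and in 3 of all promoters, and the E-box (CACGTG) in 5.88% of S phase promoters against 6.02%. Mki67 (chr7:135716380-135716629, minus strand) is shown as the proliferation marker, with 2 CHR and 3 CCAAT matches in capitals. A match describes letters and not binding.
Mki67: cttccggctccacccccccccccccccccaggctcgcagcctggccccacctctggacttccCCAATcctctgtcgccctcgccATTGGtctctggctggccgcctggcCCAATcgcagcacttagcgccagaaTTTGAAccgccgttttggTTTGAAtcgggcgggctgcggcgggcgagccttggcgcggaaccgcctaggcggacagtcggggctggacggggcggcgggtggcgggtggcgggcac

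Of 25 genes of the stem cell surface, 9 (36.0%) were higher and 3 (12.0%) lower at an unadjusted p below 0.05, with a median of 0.16. Without YCRRF replicate 3 these counts were 13 and 4. Over all genes 3.93% were higher and 3.34% lower. Jam2, a junctional adhesion molecule, measured 21.2, 23.1, 34.5 and 26.8 CPM in YCR and 60.3, 76.1, 62.9 and 51.1 CPM in YCRRF (1.23, SE 0.21, edgeR adjusted p = 0.131), and Ecscr, a surface protein of endothelium and HSCs, had 1.17 (SE 0.26). Procr (EPCR) and Ly6a (Sca-1), used to define HSCs, had 0.31 (SE 0.10) and 0.52 (SE 0.14) with no overlap. Flt3, the receptor Flk2 that the sort excludes, measured 63.7, 60.4, 23.9 and 33.8 CPM in YCR and 23.9, 23.1, 8.07 and 26.5 CPM in YCRRF (-1.16, SE 0.40), and Cd34 had -0.18 (SE 0.12). Of 29 stem cell transcription factors, 4 (13.8%) were higher and 4 (13.8%) lower at an unadjusted p below 0.05, with a median of 0.08. The 4 lower became 2 without YCR replicate 3. Sox18 had 1.19 (SE 0.26), Mycn 0.58 (SE 0.15) and Mecom 0.42 (SE 0.14), with Mecom at 218 CPM in YCRRF replicate 3 and 320 to 333 CPM in the other refed libraries. Spi1 (PU.1) had -0.25 (SE 0.16), Kdr 0.08 (SE 0.53), and Runx3 22.2 to 42.8 CPM in YCR against 10.8 to 21.9 CPM in YCRRF (-1.14, SE 0.30).

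Genes known as markers of old HSCs lay mostly above 0 in refed young HSCs. The refed mice were also about 4 weeks older by the schedule, and the part of age was not tested. Of 24 such genes 20 had a positive log2 fold change, with a median of 0.50. At an unadjusted p below 0.05, 11 (45.8%) were higher, against 3.93% of all genes, and none lower. Clu, clusterin, measured 20.2, 27.1, 37.7 and 30.3 CPM in YCR and 111, 102, 53.4 and 95.0 CPM in YCRRF (1.63, SE 0.26, edgeR adjusted p = 0.103). Its lowest refed value was in YCRRF replicate 3. Vwf, von Willebrand factor of platelet-biased HSCs and of endothelium, measured 160, 179, 185 and 290 CPM against 448, 341, 266 and 511 CPM (0.93, SE 0.23) with overlapping libraries. The YAL libraries had 58.7 to 83.1 CPM of Clu and 311 to 389 CPM of Vwf. Clu is also in the list of platelet lineage priming, as is Itga2b, which was lower. Of 18 tested genes of that list, 7 had a positive and 11 a negative log2 fold change, with a median of -0.07. At an unadjusted p below 0.05, 3 (16.7%) were higher and 4 (22.2%) lower, against 3.93% and 3.34% of all genes. Of 18 genes of lymphoid priming 14 were tested, 12 of them had a negative log2 fold change, 4 had an unadjusted p below 0.05, all lower, and the median was -0.67. The list holds Ighm, an immunoglobulin gene, and Flt3.

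Over all genes 3.93% were higher and 3.34% lower at an unadjusted p below 0.05, 2.75% were higher without overlap, and DESeq2 called 0.853% higher. Glycolysis had a median of 0.06, with 5 of 22 genes (22.7%) higher at an unadjusted p below 0.05 (3 without YCR replicate 1 or 4). It was led by Aldoc, an aldolase, at 10.8 to 21.3 CPM in YCR and 40.6 to 61.1 CPM in YCRRF (1.45, SE 0.25, edgeR adjusted p = 0.131). Pdk1, a kinase that inhibits pyruvate dehydrogenase, had 0.63 (SE 0.14), and Cpt2, of fatty acid import, 0.84 (SE 0.18). Fatty acid oxidation, the list of Cpt2, had a median of 0.07, with 17 of 27 tested genes positive and 10 negative. At an unadjusted p below 0.05, 3 (11.1%) of them were higher and 0 lower. Of 31 genes of cholesterol and fatty acid synthesis 6 (19.4%) were higher and 1 (3.23%) lower at an unadjusted p below 0.05. Without YCR replicate 1, YCRRF replicate 1 or YCRRF replicate 3 only 3 were higher, and DESeq2 called 0. Their regulator Srebf2 had 0.38 (SE 0.10). Among 22 tested genes of insulin signalling and FOXO targets, 8 (36.4%) were higher at an unadjusted p below 0.05 with a median of 0.29. The 8 became 3 without YCR replicate 2, 4 without YCRRF replicate 2 and 5 without YCR replicate 1 or YCRRF replicate 4, 2 genes had libraries that did not overlap, and DESeq2 called 1. The 8 included Sesn1, a sestrin that restrains mTORC1 (0.63, SE 0.13), and Txnip, which limits glucose uptake (0.30, SE 0.11). Txnip measured 1232 to 1851 CPM in YCR, 1708 to 1869 CPM in YCRRF and 2002 to 2416 CPM in YAL. Pdk4 was under 5 CPM in both groups. The cold-inducible genes Cirbp and Rbm3 had 0.42 (SE 0.17) and 0.37 (SE 0.14), and Per2 of the circadian clock -0.76 (SE 0.26), all with overlap. Fas, the death receptor gene, measured 1.87 to 2.71 CPM in YCR and 5.76 to 13.4 CPM in YCRRF (1.94, SE 0.40).

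**Figure D4:**
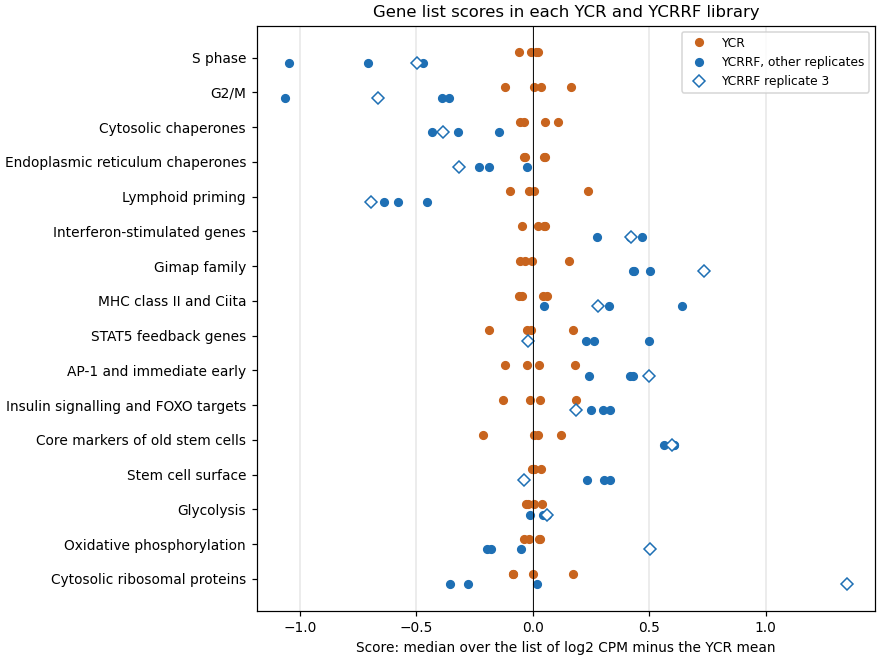
Score of 16 gene lists (median over the list of log2 CPM minus the YCR mean) in each YCR (orange) and YCRRF (blue) library, with YCRRF replicate 3 as an open diamond. The diamond lies at 1.35 for ribosomal proteins, where the other refed libraries lie between -0.35 and 0.02.

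Ribosomal protein genes showed how far 1 library can carry a list. With all libraries 77 of 77 had a positive log2 fold change, with a median of 0.37, and 0 had an unadjusted p below 0.05. Without YCRRF replicate 3, 77 of 77 were negative with a median of -0.20, and 19 were lower at an unadjusted p below 0.05. Rplp1, for example, had 385, 548 and 445 CPM in the other refed libraries, 2038 CPM in replicate 3 and 468 to 578 CPM in YCR. Oxidative phosphorylation genes turned from a median of 0.07 to -0.14. No direction is therefore given for either list.

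**Figure D5:**
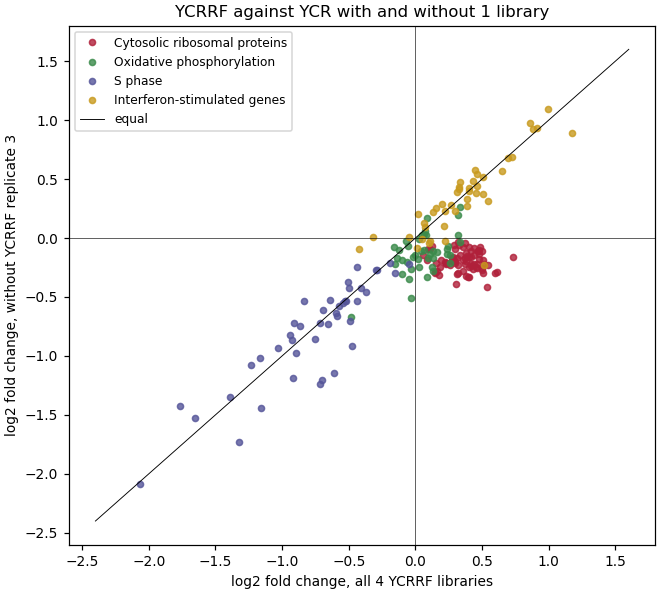
Log2 fold change of YCRRF against YCR with all 4 refed libraries (x axis) and without YCRRF replicate 3 (y axis) for each gene of 4 lists, with the line of equal values. Ribosomal proteins lie right of 0 and below 0, while S phase and interferon-stimulated genes stay near the line.

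The same lists against ad libitum mice share libraries with the comparison above, so their values are set side by side only. By the schedule YCRRF mice were also about 4 weeks older than YAL mice, and the part of age was not tested. For S phase the list median was 0.34 in YCR against YAL and -0.37 in YCRRF against YAL, and for G2/M 0.36 and -0.30. For interferon-stimulated genes it was -0.25 and 0.07, for the Gimap family -0.67 and -0.11, and for markers of old HSCs -0.18 and 0.22. Cytosolic chaperones had 0.28 and 0.01. For single genes the group means ran, in YAL, YCR and YCRRF, from 118 ± 16 to 28.5 ± 7.1 and 97.6 ± 6.7 CPM for Slfn2, from 124 ± 20 to 55.7 ± 8.0 and 121 ± 16 CPM for Cish, and from 23.8 ± 6.0 to 33.4 ± 5.9 and 12.8 ± 4.0 CPM for Gmnn (SD, n = 4).

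Old mice refed after lifelong CR were other animals, with no shared libraries. In OCRRF against OCR the list medians were -1.08 for S phase, -1.16 for G2/M, -0.34 for cytosolic chaperones, 0.14 for interferon-stimulated genes, 0.58 for the Gimap family and 0.33 for markers of old HSCs. Slfn2 had a log2 fold change of 1.94 there, Pim2 of 1.43, Cish of 0.82, Socs2 of 2.51 and Pqlc3 of 0.39, beside 1.77, 1.33, 1.11, 1.70 and 1.14 in young mice. The difference between old and young mice was tested in 1 fit of all 4 groups over 34340 genes. Old mice had lifelong CR and young mice 4 weeks of it, so age and length of restriction cannot be told apart here. A single gene passed, Iglc3, with 2190 genes at an unadjusted p below 0.05, and DESeq2 called 48. For Slfn2 the difference old minus young was 0.23 (SE 0.32), for Pim2 0.16 (SE 0.27), for Pqlc3 -0.68 (SE 0.19) and for Socs2 0.87 (SE 0.41), with an edgeR adjusted p of 0.77 or more for each. Olfactory and vomeronasal receptor genes summed to 561 to 1257 CPM in OCR and 1161 to 1486 CPM in OCRRF, above all young libraries, and their part in the difference was not tested. With 2 OCRRF libraries, a p that misses the threshold does not show equal responses.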

How the data were processed

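RNA of sorted HSCs was sequenced. The labels give a SMARTer kit for total RNA, the study's methods a SMART-Seq kit. The authors trimmed reads with trim galore and cutadapt, aligned them to mm10 with STAR and ran featureCounts on the GENCODE M22 annotation. The deposited unit is raw counts per gene, in whole numbers. Strand and multi-mapping settings are not given in the sources used here, so overlapping, antisense and near-identical genes (Gimap, Schlafen, Ifitm, immunoglobulin) are uncertain. Coordinates came from GENCODE M21 on the same build, by symbol.

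Counts of 4 YCRRF and 4 YCR libraries (11102898 to 36579392 in all) passed filterByExpr and TMM scaling and entered glmQLFit and glmQLFTest of edgeR 4.0.16 (R 4.3.3), with DESeq2 1.42.0 as an alternative. The test was checked on simulated counts. DEGs needed a fold change over 1.2 and a p under 0.05 after Benjamini-Hochberg adjustment. Each SE was the size of the log2 fold change over the root of F. CPM used TMM factors over the 12 young libraries, and old libraries were scaled on their own. Sums of olfactory and vomeronasal receptor genes used library totals without TMM factors. Genes named were the DEGs, the 12 higher and 12 lower genes of lowest p that averaged 5 CPM or more without overlap (no Gm, Rik or pseudogene entries), the 3 of lowest p in each of 39 lists, and 20 fixed genes. Other names were picked on their values. The comparison, the lists and the named genes were chosen with earlier results of these data known. Alternatives were other scalings and filters, a replicate block, a joint fit with YAL, olfactory and vomeronasal receptor RNA as a covariate, each library left out and, added on seeing the data, library sizes without ribosomal RNA genes.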

Additional observations from a re-analysis of the deposited data

Results flagged for a closer look

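For 41 genes, 39 list scores and 3 library measures, the lowest or highest of 4 libraries was set against the other 3 by Dixon's test in each group. It marked 17 of 166 groups, where chance marks about 1 in 20. YCRRF replicate 3 stood out in its share of ribosomal RNA and 7SK reads (12.0%, others 1.54% to 2.76%), in Mecom (218 CPM), in Runx3 (21.9 CPM) and in the score of HSC-defining genes (-0.017, others 0.29 to 0.32). YCRRF replicate 4 stood out in total counts (11.1 M), in the score of mast cell markers (-3.11, of which 2 genes were tested), in the score of stem cell transcription factors (0.11) and in Txnip (1708 CPM). YCRRF replicate 2 stood out in Igkc (6.68 CPM) and in the fatty acid oxidation score (-0.031).

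Among YCR libraries, replicate 4 stood out in ribosomal RNA reads (3.40%), in the scores of fatty acid oxidation (-0.11) and glucocorticoid response (0.25) and in Chek1 (46.4 CPM). Replicate 1 stood out in Efna1 (17.5 CPM), replicate 2 in Mlec (311 CPM) and replicate 3 in the erythroid score (-0.20).

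The refeeding difference of Iglc3, an immunoglobulin light chain gene, differed between old and young mice by 14.45 on the log2 scale in edgeR's test (old minus young, adjusted p = 0.0354). All YCRRF libraries were at 0, so this fitted value depends on the prior count and is no bound. Iglc3 measured 1.29 to 16.1 CPM in YCR, and 0 to 0.138 CPM in OCR and 0.549 to 0.690 CPM in OCRRF.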

How the results depend on the processing

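Of the 2 DEGs found by the reported fit, the number became 357 with DESeq2, 1 with DESeq2's size factors, 1 with TMM from genes of at least 5 CPM, 275 with no filter, 4 with at least 10 counts in every library, 32 in 1 fit of YAL, YCR and YCRRF and 0 with the receptor background as a covariate (edgeR, 1592 genes at an unadjusted p below 0.05). It was 2 with a mean of at least 5 CPM, with the adjusted p alone and without ribosomal RNA genes (added after the data were seen). With each library left out it ranged from 0 to 10. It was 0 without YCR replicate 3 or 4 or YCRRF replicate 1, 2 or 4 (edgeR, 1191 to 1629 genes at an unadjusted p below 0.05), 6 without YCRRF replicate 3 and 10 without YCR replicate 1, where the granulocyte genes Ngp, S100a8, S100a9, Lcn2 and Camp and the plasma cell genes Igha, Jchain and Iglc3 joined Slfn2 and Pqlc3. The cause was not tested. In each of the 19 alternatives the fold changes of Slfn2 and Pqlc3 kept their direction, and they were called in 12 and 9 of them. With the replicate number as a block edgeR's count was 0 for refeeding and 0 for the difference between old and young mice (1254 and 1580 genes at an unadjusted p below 0.05). Residuals of same-numbered libraries had correlations of -0.04 to 0.02, so the numbers were not taken to pair the mice.

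The difference between old and young mice gave 1 gene in the reported fit, 48 with DESeq2 and 5 with no filter. It gave 0 with TMM from genes of at least 5 CPM, with at least 10 counts in every library and with a mean of at least 5 CPM (edgeR, 2134, 449 and 377 genes at an unadjusted p below 0.05). With each library left out it ranged from 0 to 5, reaching 5 without YCR replicate 1. Without YCR replicate 2 the 1 gene called had the opposite direction.

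Directions turned for 5 named genes. Kdr (0.08) had -0.26 without YCR replicate 4 and -0.09 and -0.06 without YCRRF replicates 1 and 2. Pdk4 (0.20) had -0.24 with the replicate block, -0.21 without YCR replicate 1 and -0.60 without YCRRF replicate 1, and without YCRRF replicate 3 Rpl41, Rplp1 and Rps15 had -0.079, -0.16 and -0.11. The highest values on leaving out a library were 0.67 for Rpl41, 0.97 for Rplp1, 0.69 for Rps15, 0.54 for Kdr and 0.80 for Pdk4. List medians kept the sign in all alternatives for 30 of 39 lists. The 9 that turned were those of Atf4 targets, ribosomal proteins, endothelial cells, glucocorticoid response, myeloid priming, oxidative phosphorylation, TGF-beta and BMP, VEGF and Notch, and genes excluded by the sort. YCRRF replicate 4 was the shallowest library, and small differences of low genes were not detectable at its depth.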

Other observations

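Granulocyte genes were uneven within the restricted group. Ngp, a neutrophil granule protein, measured 56.7, 0, 0 and 0.183 CPM in the 4 YCR libraries and 181, 303, 134 and 62.2 CPM in the 4 YCRRF libraries, and 1.62 to 177 CPM in YAL. Camp, the cathelicidin of the same granules, measured 27.8, 0.794, 0.0973 and 0.122 CPM in YCR and 53.4, 126, 147 and 26.7 CPM in YCRRF. Igha, the heavy chain of IgA, ran the other way in the same libraries, at 0, 399, 1122 and 402 CPM in YCR and at 0.932 CPM or less in YCRRF. In YCR replicate 1 Ngp and Camp were thus high and Igha was at 0, and in YCR replicates 2 to 4 the reverse held for these genes. The 13 granulocyte markers together were less uneven, at 485, 144, 119 and 290 CPM in YCR replicates 1 to 4.

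Abcb1a, a drug efflux pump gene of HSCs, measured 4.56, 7.82, 9.58 and 5.02 CPM in YCR, 19.3, 18.5, 14.6 and 39.7 CPM in YCRRF and 15.2 to 20.1 CPM in YAL. Fos, an immediate early gene, was listed at 0.529 CPM in YCR replicate 1 and at 0 in the other YCR libraries, and measured 1.46 to 4.46 CPM in YCRRF. These genes were chosen after their values were seen.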
